A study of Arabidopsis thaliana with 3 samples.

Results

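The genes described here are 10 epidermal transcription factor genes of Arabidopsis thaliana, chosen by locus identifier. They are the HD-ZIP IV genes ATML1, PDF2, HDG1, HDG2, HDG3, HDG5, HDG11 and HDG12 and the MIXTA-like MYB genes MYB16 and MYB106. Of these, 9 are among the 19777 genes in the authors' deposited table. HDG3 is not in that table and has no value here. The data come from poly(A) RNA of inflorescence meristems and flower buds of 3 independent lines, with 1 library per line. These plants were sep1 sep2 sep3 triple mutants that expressed SEP3Δtet, which the series title calls a splice variant of SEPALLATA3, and the authors compared them with the sep1 sep2 sep3 triple mutant without it. The labels give the oldest buds as stages 10 to 11 for line 1, 10 to 12 for line 2 and 10 to 13 for line 3. The promoter that drives SEP3Δtet and the number of triple mutant libraries are not given in the sources at hand. Lines and triple mutant alike carried the 3 sep mutations. SEP3 itself had a log2 fold change of 2.27 (adjusted p = 1.1e-04) per the authors' deposited table, a value in which transgene and mutant allele are not separated.

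HD-ZIP IV proteins join a homeodomain and a leucine zipper, with which they bind DNA as dimers, to a lipid-binding START domain. Most act in the outermost cell layer of the shoot, called L1, where ATML1 and PDF2 together establish epidermal identity. They bind an element known as the L1 box, found upstream of many epidermal genes. MIXTA-like MYB proteins shape petal epidermal cells and promote the cuticle, the layer of cutin and wax that covers the shoot. In flowers, combined HD-ZIP IV mutants form abnormal organs, so this family connects the epidermis with floral organ development.

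In all, 4 of the members were lower in the SEP3Δtet lines and none was higher. The 4 were ATML1, PDF2, HDG12 and MYB16, reduced by 18.8% to 32.2%. Calls are genes with an adjusted p under 0.05 in that table, from edgeR's test per the submitters' processing notes. Of all 19777 genes, 5.88% were called lower, 11.6% higher and 17.5% in either direction. Of the members, 7 lie between 4 and 8 log2 CPM (CPM scales a gene's reads to the library total, and the value is an average over all libraries of the authors' fit). In that range 7.73% of 11025 genes were called lower and 6.68% higher, and all 4 calls are among these 7. Of genes within 0.5 log2 CPM of each called member, 12.6% (PDF2), 10.4% (ATML1), 8.96% (MYB16) and 6.75% (HDG12) were called lower. The log2 fold change was below 0 for 8 of the 9 members, against 57.7% of genes between 4 and 8 log2 CPM and 50.1% of all genes. The members' median log2 fold change was -0.34 per the authors' deposited table, against -0.04 for genes between 4 and 8 log2 CPM and -0.0009 for all genes. All members were chosen with results of this comparison known, so these counts describe them and are no independent support.

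**Figure D1:**
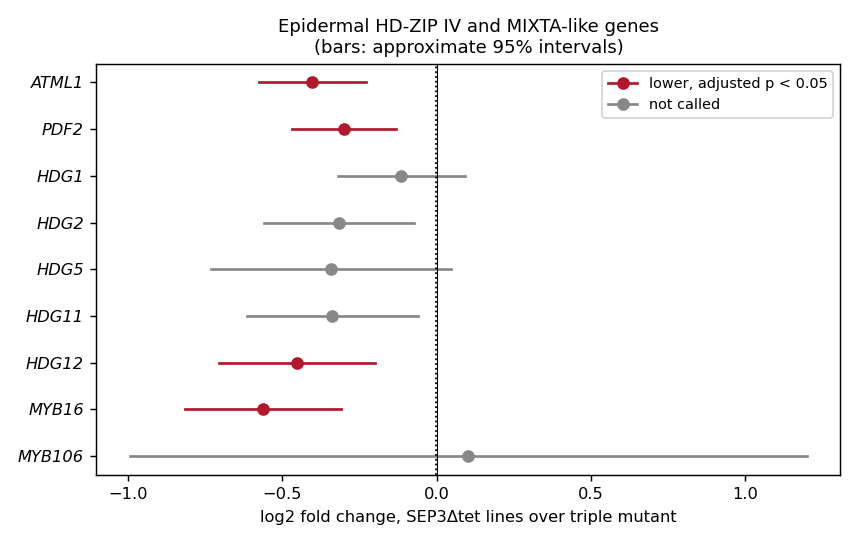
Log2 fold change of the 9 measured members, SEP3Δtet lines over the triple mutant, per the authors' deposited table. Points are deposited values, bars are approximate 95% intervals computed from the fold change and its F statistic, and the dotted line is the median of all genes. ATML1, PDF2, HDG12 and MYB16 were called lower, and the interval of MYB106 runs from -0.99 to 1.2.

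The table holds 1 fold change per gene and no value per library. How the 3 lines differed among themselves, and how deeply each was sequenced, is therefore unknown. An approximate standard error was obtained for each gene by dividing the size of its log2 fold change by the square root of its F statistic. Intervals given below are 95% intervals from these errors and are not adjusted for the number of genes. In RNA of whole inflorescences, fewer epidermal cells and less RNA per epidermal cell cannot be told apart.

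ATML1 and PDF2 are the closest pair of the HD-ZIP IV members in coding sequence, with 84.2% identity over 2207 aligned bases. ATML1 (AT4G21750) lies at chr4:11555039-11560771 on the plus strand of the TAIR10.1 annotation and has 9 coding exons. PDF2 (AT4G04890) lies at chr4:2476390-2482447 on the minus strand and has 10 coding exons. The 250 bases before each gene start are shown because both genes fell, and capitals mark the longest run that the windows share (TAIR10.1, chr4:11554789-11555038 for ATML1 and chr4:2482448-2482697 for PDF2, each on its gene's strand).
ATML1 upstream: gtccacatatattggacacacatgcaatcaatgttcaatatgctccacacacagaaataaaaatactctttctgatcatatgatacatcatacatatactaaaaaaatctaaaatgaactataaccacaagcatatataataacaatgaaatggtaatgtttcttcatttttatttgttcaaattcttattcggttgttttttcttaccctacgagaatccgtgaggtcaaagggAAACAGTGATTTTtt
PDF2 upstream: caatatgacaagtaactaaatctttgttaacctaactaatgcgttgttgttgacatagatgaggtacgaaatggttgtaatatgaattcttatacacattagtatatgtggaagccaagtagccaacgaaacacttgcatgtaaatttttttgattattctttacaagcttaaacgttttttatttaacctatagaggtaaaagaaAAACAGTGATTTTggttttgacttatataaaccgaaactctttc
The shared run is 13 bases long and begins 15 bases before the start of ATML1 and 44 bases before that of PDF2. Over the 45 pairs of the 10 members, the longest run shared by such windows was 7 to 15 bases, with a median of 9.

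Per the authors' deposited table, ATML1 fell by 0.40 on the log2 scale in the SEP3Δtet lines (standard error 0.08, adjusted p = 0.0039), at an average abundance of 7.01 log2 CPM. This is a reduction of 24.3%, with an interval from 14.7% to 32.8%. PDF2 fell by 0.30 per the authors' deposited table (standard error 0.08, adjusted p = 0.018), at 7.71 log2 CPM, a reduction of 18.8%. Among genes within 0.5 log2 CPM of each, 5.26% of 1445 had a lower fold change than ATML1 and 14.0% of 784 had a lower one than PDF2. The intervals of the partners overlap, from -0.57 to -0.23 for ATML1 and from -0.47 to -0.13 for PDF2, and the difference between them was not tested. PDF2 was the most abundant of the 9 members per kilobase of coding sequence, at 6.55 log2 CPM per kilobase, and ATML1 stood at 5.81. The longest run of bases shared by their coding sequences was 28, shorter than the reads of 150 bp, and how reads that fit more than 1 gene were counted is not stated in any source used here.

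HDG1, HDG2, HDG3 and HDG5 are further HD-ZIP IV members, and HDG11 and HDG12 are described below. HDG1, HDG2 and HDG5 were measured and none was called, although all had values below 0. HDG1 (AT3G61150, chr3:22630331-22635155) encodes a protein that works with CFL1 in cuticle formation. Its log2 fold change per the authors' deposited table was -0.11 (standard error 0.09, adjusted p = 0.475). Its interval from -0.32 to 0.09 reaches into those of ATML1 and PDF2. CFL1 itself had a log2 fold change of 0.09 per the authors' deposited table (adjusted p = 0.760).

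HDG2 (AT1G05230, chr1:1512896-1518900) promotes trichome and stomatal differentiation. Per the authors' deposited table, its log2 fold change was -0.32 (standard error 0.11, unadjusted p = 0.015, adjusted p = 0.074), a value between those of PDF2 and ATML1, at 5.02 log2 CPM. HDG5 (AT5G46880, chr5:19030844-19035959), which acts with PDF2 and ATML1 in floral organ formation, had a similar value of -0.34 per the authors' deposited table (adjusted p = 0.232). Its standard error of 0.18 was larger than that of 93.4% of genes of like abundance, and its interval ran from -0.73 to 0.05. HDG3 (AT2G32370, chr2:13740878-13746286) has no value.

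HDG2 was the 1 member with an L1 box in the 250 bases before its start. The window is shown with that box in capitals (TAIR10.1, chr1:1518901-1519150, minus strand).
HDG2 upstream: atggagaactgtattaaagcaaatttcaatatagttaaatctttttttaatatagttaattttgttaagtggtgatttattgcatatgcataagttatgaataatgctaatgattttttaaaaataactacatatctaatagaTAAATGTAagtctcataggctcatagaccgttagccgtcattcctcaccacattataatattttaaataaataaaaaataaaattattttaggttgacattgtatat
The box begins 107 bases before the start. The search covered TAAATGCA and TAAATGTA on both strands, and 4.49% of 27443 protein-coding genes held such a match in a window of this length. In the 1000 bases before the start the share was 15.8% of all genes and 2 of the 10 members, ATML1 and HDG2.

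HDG11 and HDG12 are partners that limit trichome branching, with 80.7% identity over 2031 aligned coding bases. HDG12 (AT1G17920, chr1:6161870-6165820) fell by 0.45 per the authors' deposited table (standard error 0.12, adjusted p = 0.018), a reduction of 26.9% with an interval from 12.9% to 38.7%. Among 4116 genes of like abundance, 2.99% had a lower fold change. HDG11 (AT1G73360, chr1:27578421-27582685), at a lower abundance of 3.57 log2 CPM, had a log2 fold change of -0.34 per the authors' deposited table (standard error 0.13, adjusted p = 0.093). Its unadjusted p was 0.021 and its interval, from -0.61 to -0.06, lay below 0. HDG12 thus passed the test and HDG11 did not, at values whose intervals overlap. The difference between the partners was not tested.

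MYB16 (AT5G15310, chr5:4974671-4976470), the MIXTA-like gene of petal epidermal cell shape, had the lowest value of the 9 members. It fell by 0.56 per the authors' deposited table (standard error 0.12, adjusted p = 0.0052), a reduction of 32.2% with an interval from 19.3% to 43.1%. Among 3026 genes of like abundance, 1.32% had a lower fold change. MYB106 (AT3G01140, chr3:46330-48296), which limits trichome branching and activates cuticle genes, had a log2 fold change of 0.10 per the authors' deposited table (adjusted p = 0.922). At 0.60 log2 CPM it was the least abundant member, and its interval from -0.99 to 1.2 contains the value of MYB16. The table therefore does not show whether the MIXTA-like partners differ.

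The coding sequences of MYB16 and MYB106 were 83.0% identical over 952 aligned bases. Their upstream windows are shown with the longest shared run in capitals (TAIR10.1, chr5:4974421-4974670, plus strand, for MYB16 and chr3:48297-48546, minus strand, for MYB106).
MYB16 upstream: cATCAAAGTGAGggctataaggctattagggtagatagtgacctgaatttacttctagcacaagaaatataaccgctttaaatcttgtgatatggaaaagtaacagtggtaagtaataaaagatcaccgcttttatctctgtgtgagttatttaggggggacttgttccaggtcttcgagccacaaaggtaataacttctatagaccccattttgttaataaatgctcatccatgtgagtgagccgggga
MYB106 upstream: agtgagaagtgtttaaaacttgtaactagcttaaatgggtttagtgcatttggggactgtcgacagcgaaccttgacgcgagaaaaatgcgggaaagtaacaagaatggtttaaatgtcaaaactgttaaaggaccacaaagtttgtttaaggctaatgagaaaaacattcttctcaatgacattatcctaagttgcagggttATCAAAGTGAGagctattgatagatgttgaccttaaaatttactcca
The run of 11 bases begins 249 bases before the start of MYB16 and 47 bases before that of MYB106. The MYB106 window overlaps the annotated non-coding gene AT3G00975.

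**Figure D2:**
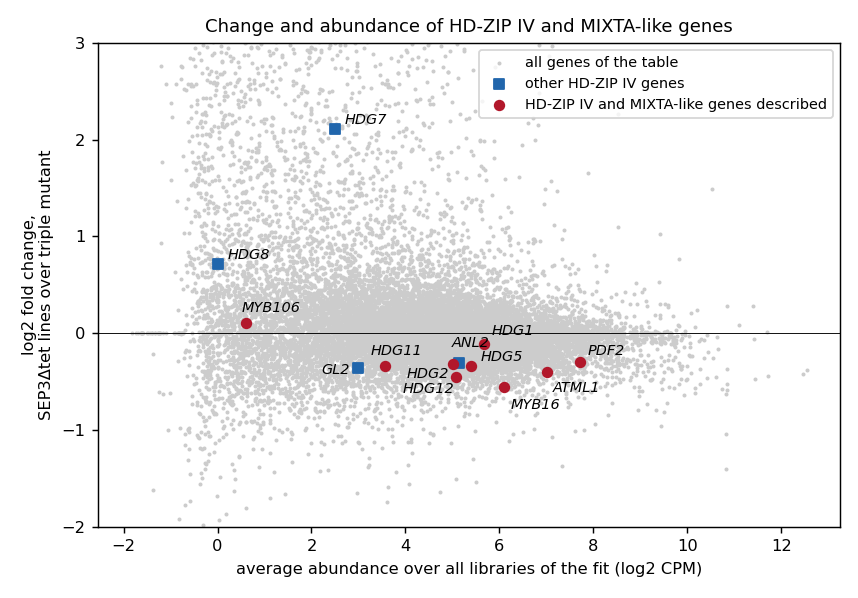
Log2 fold change, SEP3Δtet lines over the triple mutant, against average log2 CPM for the 9 members (red), 4 other HD-ZIP IV genes (blue squares) and all genes of the authors' deposited table (grey). The vertical axis runs from -2 to 3, which leaves out 827 genes. The 8 members other than MYB106 lie between -0.56 and -0.11, while HDG7 lies at 2.11.

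HDG7 was the 1 other HD-ZIP IV gene called, and it was higher. Of 8 listed, 4 were in the table, where 1 rose, 0 fell and 3 were not called, with a median log2 fold change of 0.20 beside -0.0009 for all genes. For genes within 0.5 log2 CPM of each, the median was 0.44 for HDG8, 0.11 for HDG7, 0.07 for GL2 and -0.02 for ANL2. FWA, HDG4, HDG9 and HDG10 are not in the table. HDG7 (AT5G52170) rose 4.31-fold per the authors' deposited table (2.11 on the log2 scale, standard error 0.19, adjusted p = 1.1e-05), at 2.51 log2 CPM. Its interval does not overlap that of any member. Among 1879 genes of like abundance, 17.5% were called higher and 91.0% had a lower fold change than HDG7. ANL2, an anthocyanin and root regulator, had a log2 fold change of -0.31 per the authors' deposited table (adjusted p = 0.094), close to the members' median. GL2, which acts in trichomes and root hairs, stood at -0.36 (adjusted p = 0.229) and HDG8, at 0.02 log2 CPM, at 0.71 (adjusted p = 0.577) per the authors' deposited table.

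Matches to L1 boxes upstream of the family are set side by side because HD-ZIP IV proteins bind this element. Capitals mark the box, each sequence is on its gene's strand, and 10 bases are shown on either side (TAIR10.1).
ATML1, chr4:11554520-11554547: tataacagtaTAAATGTAtaatgaggac
HDG2, chr1:1518990-1519017: atctaatagaTAAATGTAagtctcatag
ANL2, chr4:304651-304678: tgtcaaaaaaTGCATTTAaccaaaaaaa
HDG8, chr3:759648-759675: ctttcaaaaaTACATTTAataattataa
HDG10, chr1:12692830-12692857: taattgaaacTAAATGCAatataataaa
ATML1 was called lower, HDG2, ANL2 and HDG8 were not called and HDG10 has no value. PDF2, HDG12 and MYB16, also called lower, had no such match in the 1000 bases before their starts. Sequence farther upstream or past the annotated start was not searched, so these genes may hold a box elsewhere. Whether a box bears on a call was not tested. The CArG box, the element that MADS proteins such as SEP3 bind, was searched by its canonical consensus. It was found in this distance for 7.21% of all genes and for 2 of the 10 members, HDG1 and HDG3. HDG1 was not called and HDG3 has no value. The match of HDG1 begins 401 bases before its start and lies within the neighbouring gene AT3G61140, and that of HDG3 begins 298 bases before its start.
HDG1, chr3:22629920-22629949: taagaatccgCCAAATTTGGaagatgggcc
HDG3, chr2:13740570-13740599: attaaatataCCAAAAATGGttaaaaatat
A match is a description of these letters and was not tested for binding.

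**Figure D3:**
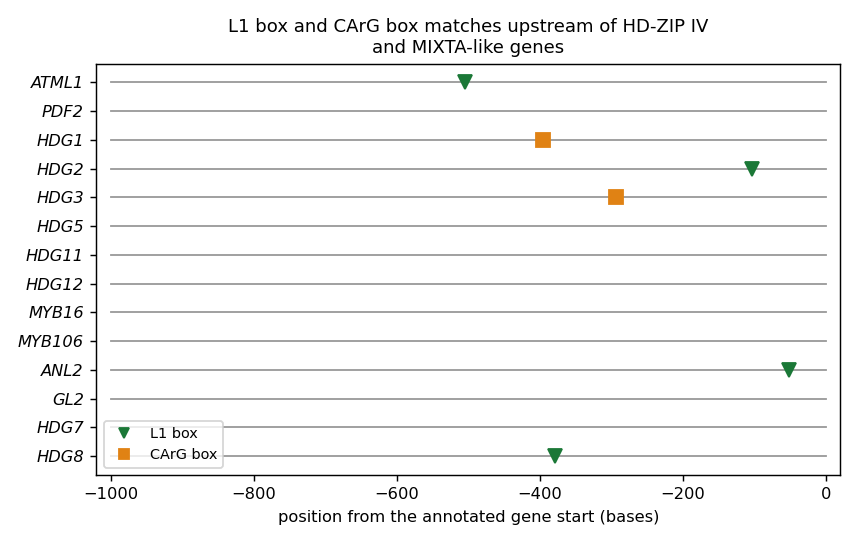
Positions of L1 box (triangles) and CArG box (squares) matches in the 1000 bases before the annotated start of the 10 members and 4 other HD-ZIP IV genes of the table. The horizontal axis is the distance from the gene start in bases. ATML1 and HDG2 hold 1 L1 box each and HDG1 and HDG3 1 CArG box each.

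Genes of epidermal signalling and L1 markers split. Of 10 in the table (12 listed), 2 fell, 3 rose and 5 were not called, with a median log2 fold change of -0.13. The shares over all genes were 5.88% called lower and 11.6% called higher. The lipid transfer protein gene LTP1, highly expressed in the epidermis, fell by 0.46 per the authors' deposited table (adjusted p = 0.0069). PDF1, a marker of the L1 layer that ATML1 and PDF2 bind, fell by 0.34 (adjusted p = 0.047) per the authors' deposited table. That call is lost when p-values are adjusted over genes of at least 1 log2 CPM (adjusted p = 0.051) or recentred (adjusted p = 0.081). It is the 1 called gene of this list outside the naming rule and was named after its value was seen. Both LTP1 and PDF1 were very abundant, at 10.4 and 9.98 log2 CPM. Within 0.5 log2 CPM of each, 39.0% of 41 genes (LTP1) and 23.0% of 87 genes (PDF1) were called lower. Of those genes, 29.3% (LTP1) and 27.6% (PDF1) had a lower fold change. Other marker genes of this layer were not called, with log2 fold changes of -0.34 for ACR4 (adjusted p = 0.059) and -0.15 for FDH (adjusted p = 0.272) per the authors' deposited table.

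The increases in this list were larger than its decreases. GSO2, a receptor kinase gene needed with GSO1 for the embryonic cuticle, rose 7.52-fold per the authors' deposited table (2.91 on the log2 scale, adjusted p = 1.9e-06). GSO1 rose 2.06-fold (adjusted p = 0.0083) per the authors' deposited table. LGO, a cell cycle inhibitor gene through which ATML1 promotes giant cells of the sepal epidermis, rose 3.73-fold (log2 fold change 1.90, adjusted p = 8.3e-05) per the authors' deposited table. LGO was thus higher in the SEP3Δtet lines while ATML1 was lower. Of genes within 0.5 log2 CPM, 7.91% (GSO2), 9.29% (LGO) and 19.9% (GSO1) were called higher. Anther and tapetum genes also rose, as described below, and the part of that shift in these values was not tested.

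Cutin and wax genes, which the MIXTA-like proteins and HDG1 act on, were mostly not called, and the calls there were all lower ones. In the cutin list, 3 of 19 measured genes fell, 0 rose and 16 missed the call, with a median of -0.16, beside 5.88% of all genes called lower. They were GPAT8 (log2 fold change -0.35, adjusted p = 0.0067), an acyltransferase gene, and the acyl-CoA synthetase genes LACS1 (-0.28, adjusted p = 0.031) and LACS2 (-0.29, adjusted p = 0.035) per the authors' deposited table. The calls of LACS1 (adjusted p = 0.063) and LACS2 (adjusted p = 0.068) are lost when fold changes are recentred. SHN1, a cuticle regulator that MYB106 activates, had a log2 fold change of -0.15 (adjusted p = 0.506) per the authors' deposited table. Among 17 wax genes 2 fell, 0 rose and 15 missed the call, with a median of -0.12. Both counts are small, and neither was tested against that share. The 2 were CER1, needed for wax alkanes (-0.46, adjusted p = 0.015), and the reductase gene KCR1 (-0.33, adjusted p = 0.015) per the authors' deposited table. Median abundance was 7.09 log2 CPM for the cutin list and 6.50 for the wax list, and lower calls were commoner among abundant genes. Within 0.5 log2 CPM of the called cutin and wax genes, 8.63% (GPAT8) to 18.9% (LACS1) of genes were called lower.

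Genes of the stomatal lineage, in which HDG2 acts, held 8 of 19 that fell, 1 that rose and 10 not called. Their median log2 fold change was -0.46. Of all genes, 5.88% were called lower and 11.6% higher, and the counts were not tested against these shares. With fold changes recentred, 5 of the 19 were lower. SPCH, which starts the lineage, fell by 0.75 (adjusted p = 2.8e-04), and the receptor gene TMM by 0.74 (adjusted p = 1.9e-04) per the authors' deposited table. SCRM2, whose protein pairs with SPCH, fell by 0.46 (adjusted p = 0.0031), and the polarity gene POLAR by 0.50 (adjusted p = 0.010) per the authors' deposited table. The 1 that rose, MYB88, limits late divisions of the lineage (log2 fold change 0.64, adjusted p = 0.015 per the authors' deposited table) and was named after its value was seen. MUTE (-0.20) and FAMA (-0.28), which act after SPCH, were not called per the authors' deposited table (adjusted p = 0.580 and 0.208).

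Of 14 trichome genes in the table (19 listed), 1 fell, 0 rose and 13 were not called, with a median of -0.20. Over all genes, 5.88% were called lower and 11.6% higher. The 1 trichome gene that fell was EGL3, a bHLH gene of trichome initiation (log2 fold change -0.50, adjusted p = 0.0028 per the authors' deposited table). The trichome regulators GL1 and GL3 averaged -0.12 and 0.85 log2 CPM per the authors' deposited table, so both lay below 1 log2 CPM. The trichome markers TRY and TTG2 were more abundant, at 3.33 and 1.80 log2 CPM. Neither was called, with log2 fold changes of -0.37 for TRY (adjusted p = 0.076) and -0.10 for TTG2 (adjusted p = 0.817) per the authors' deposited table.

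**Figure D4:**
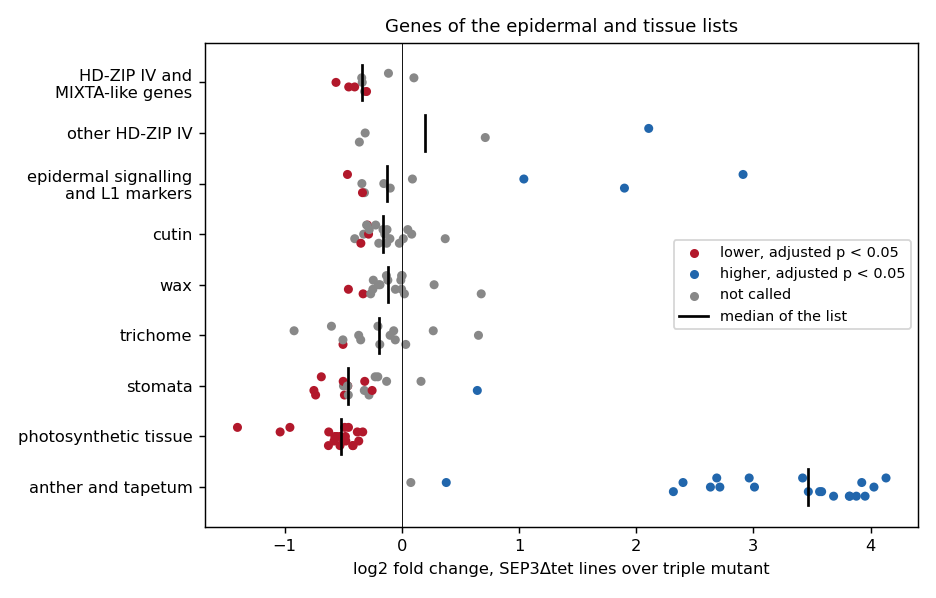
Log2 fold change, SEP3Δtet lines over the triple mutant, for each measured gene of the members and 8 lists, per the authors' deposited table. Each point is 1 gene, red where called lower, blue where called higher and grey where not called, and the black bar is the list's median. Medians are -0.34 for the members, -0.46 for stomatal, -0.51 for photosynthetic and 3.47 for anther and tapetum genes.

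Marker genes of other tissues differed between the genotypes in the same libraries. All 20 photosynthetic genes fell (median log2 fold change -0.51), and 20 of 21 anther and tapetum genes rose (median 3.47), with TPD1 the 1 not called, per the authors' deposited table. Of all genes, 5.88% were called lower and 11.6% higher. The photosynthetic genes were very abundant, at 8.54 to 12.5 log2 CPM. Within 0.5 log2 CPM of each, 12.8% (PSAE1) to 42.1% (LHCA4) of genes were called lower, leaving aside LHCB1.3 and RBCS1A, with 2 genes in that range. With fold changes recentred 18 of the photosynthetic calls hold, and those of PSAD1 (adjusted p = 0.065) and RBCS1A (adjusted p = 0.057) are lost. The 2 photosynthetic genes with the smallest p, LHCB1.2 (-1.04, adjusted p = 3.4e-05) and LHCB1.1 (-1.40, adjusted p = 1.5e-04), per the authors' deposited table, are known as close copies of each other, and how reads shared by them were counted is not stated in any source used here. Fold changes of called anther and tapetum genes ran up to 4.13 on the log2 scale, with AMS at 3.47 and MS2 at 4.13 per the authors' deposited table. The part of these shifts in the members' values was not tested. All 7 inflorescence and flower bud markers were in the table, at 2.69 to 7.81 log2 CPM, and 3 rose and 2 fell. Those that rose were WUS (log2 fold change 2.01), PI (0.77) and AP3 (0.33), and those that fell were AP1 (-1.003) and LFY (-0.73) per the authors' deposited table. AP3 lost its call when p-values were adjusted over genes of at least 1 log2 CPM (adjusted p = 0.0502).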

How the data were processed

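Poly(A) RNA of 3 SEP3Δtet lines was sequenced as paired reads of 150 bp. The submitters' processing notes name STAR, featureCounts and edgeR and the TAIR10 build. Versions, the low-count filter, strand, the model and the control libraries are not stated in any source used here. The authors deposited 1 table of log2 fold changes, average log2 CPM, F statistics (a score), p-values and adjusted p-values, per the file headers. Positive values are read as higher in the lines, because the authors put that genotype first in naming the comparison. Benjamini-Hochberg adjustment of the p-values over all 19777 genes gave back the adjusted values. No samples were refitted. The series text calls the lines independent.

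Computed here, with Python 3.11.15, scipy 1.17.1 and Biopython 1.88, were approximate standard errors (fold change over the square root of F), 95% intervals with the degrees of freedom that F and p imply (11.85 for 86.4% of genes, within 0.02), and counts by list. The steps for degrees of freedom, p-value adjustment and recentring were checked on simulated data, and the box search on a made-up sequence. The standard errors, the intervals and the counts were not checked in this way. Coding identity came from global alignment of the longest coding sequences. Coordinates, upstream windows and sequences are from the RefSeq TAIR10.1 annotation and genome, and the table itself has no coordinates. The named genes are all members and all other HD-ZIP IV genes in the table. Of each further list they are up to 4 called genes with the smallest p, with fewer for the photosynthetic and anther lists. PDF1, MYB88, MS2, AP3 and the uncalled markers and partners named beside them were added after their values were seen. SEP3 was also named outside this rule, as were genes given only for a range or a lost call, such as PSAE1 and ER. The members and lists were chosen with earlier results of these data known. Alternatives were stricter thresholds, adjustment over more abundant genes, minimum changes and recentring.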

Additional observations from a re-analysis of the deposited data

How the results depend on the processing

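Of the alternatives, only recentring alters a fold change, and its centre of -0.04 is smaller in size than any member's value. No member could therefore reverse its sign. None was called higher, but the 1 member above 0, MYB106, was far from a call (adjusted p = 0.922), so this says little. The count of members called lower was 4, and stayed 4 when p-values were adjusted over genes of at least 1 or of at least 4 log2 CPM and when fold changes were recentred on the median of genes of at least 4 log2 CPM (-0.04, an approximate test made from fold change and F). MYB106 was outside both abundance limits and HDG11 outside the second. It was 2 at an adjusted p of 0.01, 0 by Bonferroni, 1 with a log2 change of at least 0.5 and 0 with one of at least 1. PDF2 (-0.30) and HDG12 (-0.45) lost their call at 0.01. By Bonferroni and at a change of at least 1, ATML1 (-0.40), PDF2, HDG12 and MYB16 (-0.56) lost it; at 0.5, all but MYB16 did. Each such loss follows from the stricter threshold. With recentring the whole table had 2510 higher and 854 lower genes.

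Under the threshold of 0.01, lower calls were 1 for epidermal signalling, 1 for cutin, 0 for wax, 3 for stomatal and 12 for photosynthetic genes, and higher calls 0 for stomatal genes. Recentred, lower calls were 1 for epidermal signalling, 1 for cutin, 5 for stomatal and 18 for photosynthetic genes. Adjusted over genes of at least 1 log2 CPM, 1 epidermal signalling gene and 7 stomatal genes were lower, with ER (adjusted p = 0.051) the stomatal call lost. No paired analysis was possible because the table holds no value per library, and for the same reason no line could be left out. Depth per library is unknown.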

Other observations

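L1 boxes stood in the 1000 bases before the start of 16.2% of 1157 genes called lower, 15.9% of 2240 called higher and 15.3% of 15888 not called, beside 15.8% of all 27443 protein-coding genes. In the 250 bases before the start the shares were 5.10%, 4.51% and 4.49%. The CArG box was found in the longer window of 7.69% of genes called lower, 7.50% called higher and 7.15% not called.

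Among the epidermal lists, L1 boxes in the 1000 bases before the start were found for 4 of 12 genes of epidermal signalling and L1 markers, 5 of 20 cutin genes, 5 of 17 wax genes, 4 of 19 trichome genes and 5 of 19 stomatal genes. In the other lists they were found for 3 of 20 photosynthetic, 3 of 21 anther and tapetum and 1 of 7 inflorescence and flower bud genes. The share of all protein-coding genes was 15.8%. CArG boxes were found for 3 of 20 cutin, 3 of 17 wax, 3 of 19 stomatal, 1 of 19 trichome and 0 of 12 epidermal signalling genes, beside 7.21% of all. These shares describe the annotation and were not tested.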
